A study of Caenorhabditis elegans with 2 samples.

Results

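Rab GTPases and the sorting machinery of endosomes were described here as possible places of PHA-4 occupancy in Caenorhabditis elegans larvae. The group was taken by name: every protein-coding gene called rab-, vps- or snx- in the WBcel235 annotation, which gave 58 genes (20 rab, 31 vps and 7 snx) of 19973 protein-coding genes. Of the latter, 10896 carried a name of the same kind, a class of letters and a number, so 10838 other named genes were available for comparison. Chromatin immunoprecipitation followed by sequencing (ChIP-seq) had been run on whole L4 larvae, the last larval stage, of mixed sex. All animals were of strain OP37, with the genotype unc-119(ed3) III; wgIs37, in which wgIs37 is an insertion for pha-4. The antibody is labelled pha-4 and the target is described as eGFP-pha-4. There was 1 group with 2 biological replicates with no second condition, and the control used for calling was not analysed here. Because whole animals were used, occupancy in any 1 tissue cannot be told apart from occupancy in another.

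PHA-4 is the FoxA forkhead factor that specifies the pharynx, and it is also known for roles in the intestine, in autophagy and in the response to diet. Rab proteins are small GTPases that give each membrane compartment its identity and recruit the proteins that move, tether and fuse vesicles. The ESCRT complexes sort ubiquitinated cargo into the inner vesicles of endosomes, the CORVET and HOPS complexes tether endosomes and lysosomes before they fuse, GARP and EARP tether vesicles that return from endosomes, and retromer with the sorting nexins retrieves cargo from endosomes. In the worm these proteins are known from yolk uptake, intestinal recycling, clearance of apoptotic cells and autophagy.

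A gene was said to have a region when a summit lay between 1000 bp upstream and 200 bp downstream of any annotated 5' end of its transcripts, called the window below. Signal is the authors' value for a region, on a scale that the sources used here do not state, and rank 1 is the strongest region of a list. The pooled list, called on both replicates together, held 30000 regions with signals of 2.41 to 225.9 (median 5.07). The list thresholded by irreproducible discovery rate (IDR list) was made of the 1484 strongest of these, with signals from 25.94 upward. Replicate 1 had 21039 regions (median signal 4.11) and replicate 2 had 20807 (median signal 3.8). The pooled and replicate lists keep weak regions on purpose, so a region there is not by itself a binding site.

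The sequences at the summits of 6 of the 8 genes with an IDR region are shown because these are the regions the results turn on, and those of vps-51 and vps-25 are not printed. Each spans 50 bases to each side of the pooled summit in the RefSeq WBcel235 (ce11) genome, 5' to 3' on the strand of the gene. Capitals mark matches on either strand to the PHA-4 consensus of 7 bases (T, then A or G, then T, T, then G or T, then A or G, then C or T) and each GCGC. The windows were III:4963067-4963167 on the minus strand for vps-22, II:6588938-6589038 on the plus strand for vps-32.1, III:1080678-1080778 on the minus strand for rab-18, V:10960721-10960821 on the minus strand for vps-36, II:5907613-5907713 on the plus strand for vps-35 and III:8700731-8700831 on the plus strand for vps-33.1.
vps-22: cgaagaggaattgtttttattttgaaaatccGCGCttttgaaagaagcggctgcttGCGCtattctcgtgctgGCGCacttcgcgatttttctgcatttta
vps-32.1: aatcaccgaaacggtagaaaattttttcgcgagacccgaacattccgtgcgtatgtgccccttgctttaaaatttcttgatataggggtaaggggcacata
rab-18: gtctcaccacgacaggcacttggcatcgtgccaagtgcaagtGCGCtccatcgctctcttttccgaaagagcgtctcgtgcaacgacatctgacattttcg
vps-36: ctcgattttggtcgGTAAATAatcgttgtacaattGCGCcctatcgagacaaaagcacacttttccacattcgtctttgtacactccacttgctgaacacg
vps-35: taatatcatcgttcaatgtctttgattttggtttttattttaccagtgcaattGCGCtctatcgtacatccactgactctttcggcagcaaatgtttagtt
vps-33.1: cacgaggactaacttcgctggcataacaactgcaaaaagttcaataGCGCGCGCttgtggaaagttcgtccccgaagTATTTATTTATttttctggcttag

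Regions were more frequent at these genes than at other named genes, most clearly below the IDR threshold. An IDR summit lay in the window of 8 of 58 members (13.8%) and of 8.07% of the other named genes. A pooled region of any strength was found for 44 of 58 members (75.9%), against 49.8% of the other named genes. By whole lists, 38 members (65.5%) had a region in replicate 1 and 41 (70.7%) in replicate 2, against 41.7% and 42.5% of the other named genes. No test was run on these shares, since neighbouring genes share regions and genes are not replicates.

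The excess depended on how far down the list the count went. Among the 742 strongest pooled regions, 3 members (5.17%) were reached, against 4.29% of the other named genes, a ratio of 1.21. At 3000 regions the count was 17 members (29.3%), against 14.3%, and at 6000 regions it was 28 members (48.3%), against 23.8%. The ratio was thus 2.05 and 2.03 at these depths, was still 2.03 at 10000 regions, and fell to 1.52 over all 30000.

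**Figure D1:**
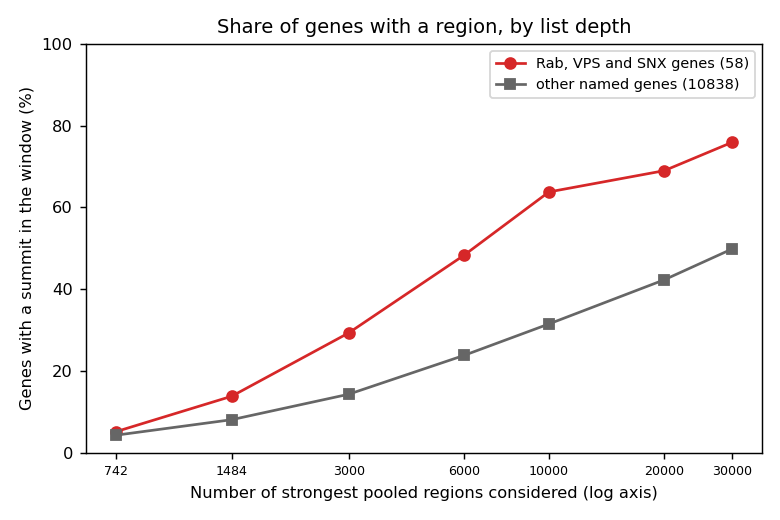
The share of genes with a summit in the window (vertical axis, percent) is plotted against how many of the strongest pooled regions are considered (horizontal axis, log scale) for the 58 Rab, VPS and SNX genes (circles) and the 10838 other named genes (squares). The curves start close together at 742 regions (5.17% against 4.29%) and are far apart at 10000 (63.8% against 31.5%).

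The same can be read from ranks. When all named genes were ordered by their strongest pooled region, the members had a median percentile of 75.1 (quartiles 52 and 86.2), while the other named genes had a median of 25, the value that genes without a region share. The top 25% held 29 of 58 members, against 24.9% of the other named genes, and the top 10% held 12 (20.7%), against 9.95%. The median percentile of the members was 68.8 in replicate 1 and 74.4 in replicate 2, each from the replicate's own list.

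The background matters for the size of this difference. Chemoreceptor genes form a large class with few regions, and without them 9.21% of the other named genes had an IDR summit and 55.4% a pooled region, and their median percentile was 55.3 in place of 25. The median window was 1201 bp in the members and in the other named genes, and members had a mean of 1.66 distinct 5' ends, against 1.59. Among the genes with the smallest possible window, a pooled region was present at 27 of 34 members (79.4%), against 42.1% of 7549 other named genes. An IDR summit was present at 4 of these 34 members (11.8%), against 6.52%.

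The replicates differed at the top of their lists. Among as many strongest regions as the IDR list holds, 11 members (19.0%) had a summit in replicate 1 and 5 (8.62%) in replicate 2, against 7.54% and 7.7% of the other named genes. Thus the share was above the background in replicate 1 and close to it in replicate 2. A summit among the strongest of both replicates was found at 3 members (5.17%), namely vps-22, vps-32.1 and rab-18, against 4.23% of the other named genes.

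**Figure D2:**
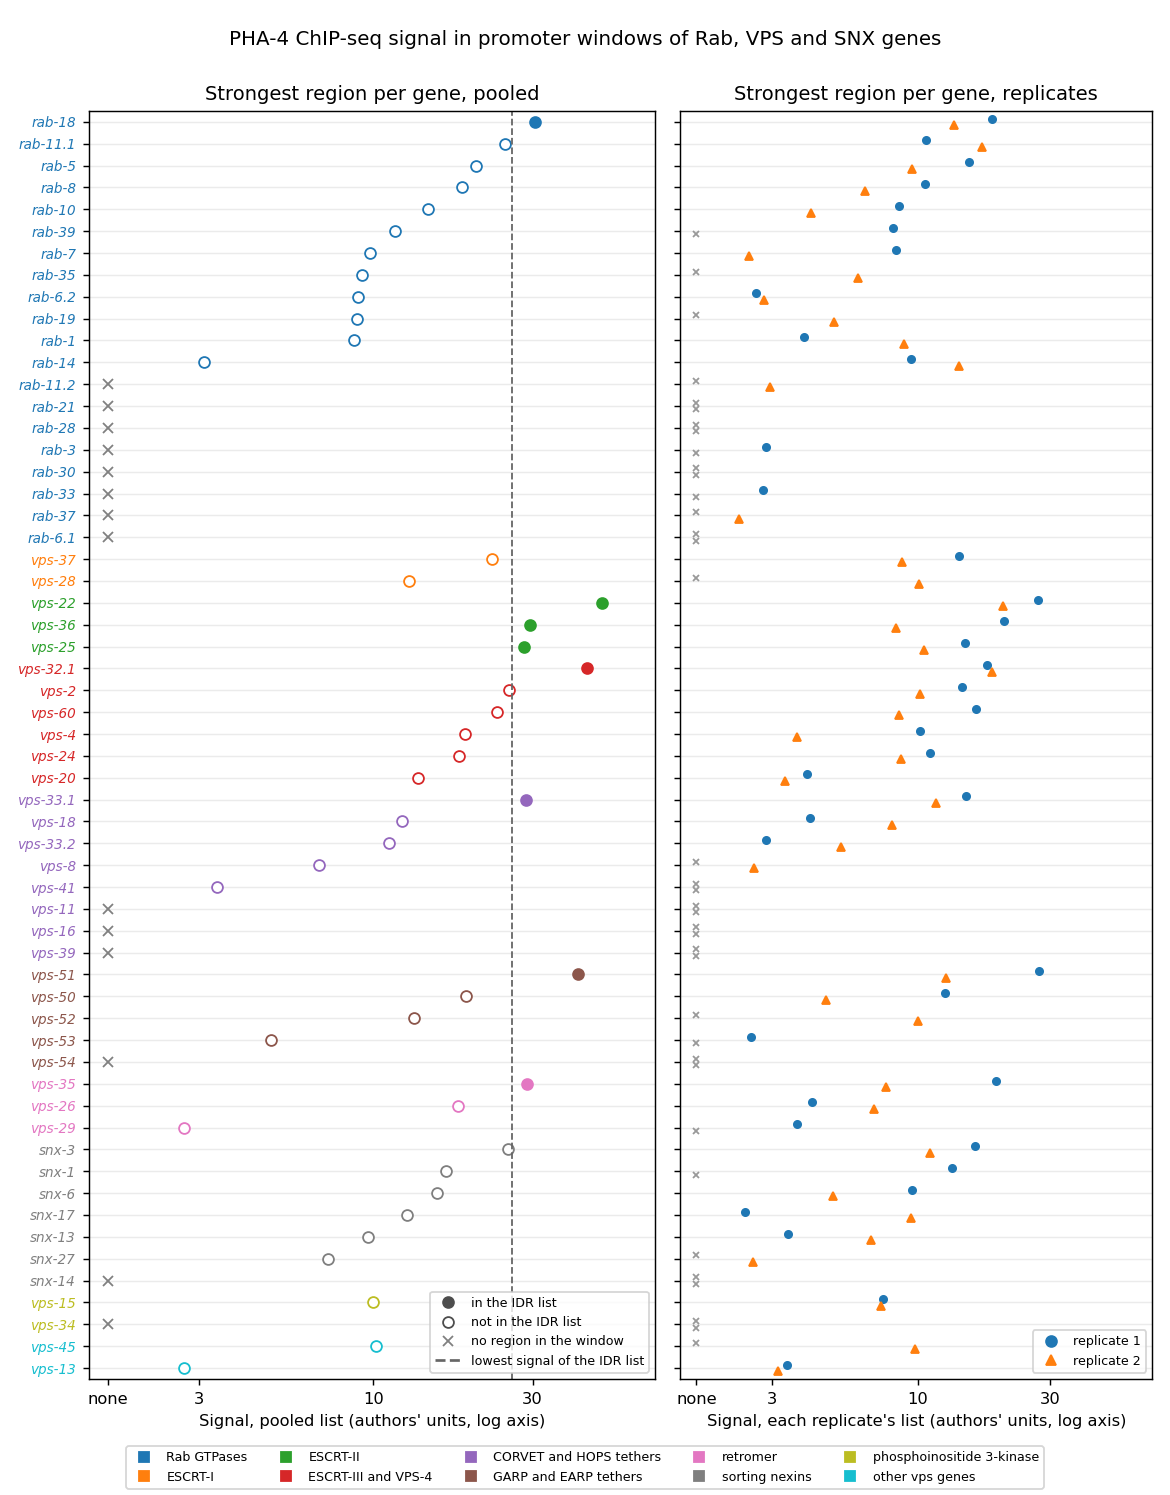
The strongest region in the window of each of the 58 genes is plotted by signal on a log axis, for the pooled list (left panel, filled circles in the IDR list, open circles outside it) and for replicate 1 (circles) and replicate 2 (triangles) in the right panel, with genes grouped by role and crosses for genes without a region. The 8 filled circles run from 28.21 for vps-25 to 48.46 for vps-22, and the 3 ESCRT-II genes are all among them.

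In the pooled list, ESCRT-II and ESCRT-III genes had the highest median percentiles of the roles. All 3 genes of ESCRT-II, the bridge between cargo recognition and membrane remodelling, had an IDR summit, and their median percentile was 93.9. All 6 genes of ESCRT-III and its disassembly factor VPS-4 had a pooled region within the top 25% of named genes, with a median percentile of 88.1, and 1 had an IDR summit. Both ESCRT-I genes with a vps name, vps-28 and vps-37, were within the top 25% as well. Of the ESCRT-I genes with other names, mvb-12 was at percentile 78.3 and tsg-101 at 60.1, outside the top 25%. With so few genes in each complex these counts are descriptions.

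The ESCRT-II gene vps-22 had the strongest region of the group. Its signal was 48.46 in the pooled list (rank 195), 27.13 in replicate 1 (rank 230) and 20.33 in replicate 2 (rank 403). The region was thus among the strongest in every list. It spans III:4962962-4963271 (ce11), and its summit was 624 bp upstream of the 5' end of vps-22 and only 73 bp upstream of that of C27F2.9, a gene on the same strand whose body overlaps vps-22. To which of these genes the region belongs was not tested.

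The other ESCRT-II genes had weaker regions that lay close to their own 5' ends. At vps-36 the signal was 29.49 in the pooled list (rank 1064), 20.50 in replicate 1 (rank 595) and 8.33 in replicate 2 (rank 3549), with the region at V:10960616-10960925 and its summit 102 bp upstream. At vps-25 it was 28.21 in the pooled list (rank 1208), 14.84 in replicate 1 (rank 1407) and 10.57 in replicate 2 (rank 2319), with the region at I:12736582-12736891 and its summit 45 bp downstream of a 5' end, in the 5' UTR. Replicate 1 was the higher of the replicates at both. A second IDR region of vps-25, with a signal of 27.97, lay 38 bp upstream of its other annotated 5' end, so both of its starts carried a region.

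In ESCRT-III the strongest region was at vps-32.1, which encodes a homologue of yeast Snf7, the main filament subunit. Its signal was 43.63 in the pooled list (rank 299), 17.74 in replicate 1 (rank 899) and 18.56 in replicate 2 (rank 551). This was the only IDR member that ranked higher in replicate 2. The region was II:6588833-6589142, and its summit was 720 bp upstream of vps-32.1 and 333 bp upstream of the divergent gene icd-1, which encodes a subunit of the nascent polypeptide-associated complex. A second region of vps-32.1 lay 100 bp upstream, with a pooled signal of 24.83 (rank 1652), below the IDR threshold.

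The remaining genes of this step were just outside or well below the IDR list. The first member past its end was vps-2, with a pooled signal of 25.52 (rank 1556), and it was 14.44 in replicate 1 and 10.18 in replicate 2. The others were vps-60 with 23.46 in the pooled list, vps-4 with 18.80, vps-24 with 18.09 and vps-20 with 13.65. None of these 5 genes was missing from either replicate. The gene vps-4, whose ATPase takes the ESCRT-III filament apart, was uneven, with 10.24 in replicate 1 (rank 3008) and 3.68 in replicate 2 (rank 10788).

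For ESCRT-I, vps-37 had a pooled signal of 22.67, with 14.10 in replicate 1 and 8.79 in replicate 2. At vps-28 the pooled signal was 12.74, replicate 1 had no region in the window and replicate 2 had 10.12.

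Among the tethers, vps-51 and vps-33.1 had IDR summits. VPS-51 is a subunit shared by GARP and EARP, and its gene had a pooled signal of 40.997 (rank 389), with 27.41 in replicate 1 (rank 220) and 12.62 in replicate 2 (rank 1593). The region was I:5807391-5807700, and its summit lay 255 bp upstream of vps-51 and 163 bp upstream of the divergent gene lin-35, which encodes the worm retinoblastoma protein. VPS-33.1 belongs to HOPS, and its gene had 28.69 in the pooled list (rank 1153), 14.98 in replicate 1 (rank 1378) and 11.69 in replicate 2 (rank 1898). Its region was III:8700626-8700935, with the summit 146 bp upstream, and 442 bp upstream of the divergent gene sdz-1.

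The other subunits of the same complexes had weaker regions or none. Among the 5 GARP and EARP genes, vps-50 had a pooled signal of 18.97, vps-52 had 13.20 and vps-53 had 4.92, while vps-54, the subunit particular to GARP, had no region. Replicate 1 had no region at vps-52, while replicate 2 had 10.01. Among the 8 CORVET and HOPS genes, 5 had a pooled region (62.5%) and 1 an IDR summit (12.5%), against 49.8% and 8.07% of the other named genes. The median percentile of the 8 was 61.3, and vps-11, vps-16 and vps-39 had no region in any list.

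In retromer, vps-35, the large subunit around which the cargo-selective core is built, had the IDR summit. Its signal was 28.80 in the pooled list (rank 1142), 19.20 in replicate 1 (rank 733) and 7.68 in replicate 2 (rank 4039), and the summit of the region, II:5907508-5907817, was 153 bp upstream. At vps-26 the pooled signal was 17.91 (rank 3118), with 4.18 in replicate 1 and 6.95 in replicate 2, and at vps-29 it was 2.70 (rank 27510). The regions of the 3 subunits thus ran from the IDR list to near the end of the pooled list.

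A pooled region was present at 6 of 7 sorting nexin genes and an IDR summit at 0, against 49.8% and 8.07% of the other named genes, and each replicate had a region at 5. Their median percentile was 78.0. The strongest was at snx-3, which acts with retromer in the return of the Wnt carrier MIG-14, with 25.35 in the pooled list (rank 1583), 16.09 in replicate 1 and 11.11 in replicate 2. The retromer-associated snx-1 had 16.52 in the pooled list and 13.28 in replicate 1, with no region in replicate 2, and snx-6 had 15.48 in the pooled list, 9.52 in replicate 1 and 4.96 in replicate 2. No list had a region at snx-14.

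Among the Rab genes, a pooled region was found at 12 of 20 and an IDR summit at 1 (5.0%), against 49.8% and 8.07% of the other named genes. Their median percentile was 71.5, and 2 of them were in the top 10%. The shares for vps genes were 26 of 31 (83.9%) and 7 of 31 (22.6%). Among the strongest regions of replicate 2 the order was the other way, with 3 of 20 rab genes and 2 of 31 vps genes (6.45%), against 7.7% of the other named genes. The difference between the classes was not tested.

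The IDR summit among the Rabs was that of rab-18, whose mammalian homologue is known from lipid droplets and the endoplasmic reticulum. Its signal was 30.59 in the pooled list (rank 967), 18.60 in replicate 1 (rank 803) and 13.51 in replicate 2 (rank 1338). The region was III:1080573-1080882, and its summit fell in the 5' UTR, 47 bp downstream of a 5' end, and also within the windows of the divergent genes kbp-4 and par-2. In both replicates the region was among the strongest 1484.

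After rab-18, the strongest pooled regions of Rabs were at rab-11.1 and rab-5. For rab-11.1, the Rab of recycling endosomes, the pooled signal was 24.78 (rank 1663), with 10.73 in replicate 1 (rank 2772) and 17.01 in replicate 2 (rank 727). For rab-5, which marks early endosomes, it was 20.30, with 15.34 in replicate 1 (rank 1296). The strongest region of replicate 2 there was another one, 342 bp from the pooled summit, with 9.55 (rank 2783). By the strongest region in the window, replicate 1 thus ranked rab-5 above rab-11.1 and replicate 2 ranked it below. At rab-8 the pooled signal was 18.37, with 10.64 in replicate 1 and 6.45 in replicate 2, and at rab-10, which acts in basolateral recycling in the intestine, it was 14.60, with 8.54 in replicate 1 and 4.13 in replicate 2. Lower in the pooled list were rab-39 with 11.64, the late endosomal rab-7 with 9.76 (percentile 73.4) and rab-35 with 9.26. Replicate 2 had no region at rab-39 and replicate 1 had none at rab-35. The pooled signal of rab-1, of transport between the endoplasmic reticulum and the Golgi, was 8.75.

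No pooled region lay in the windows of 14 members. Among them 8 were Rabs, namely rab-3, rab-6.1, rab-11.2, rab-21, rab-28, rab-30, rab-33 and rab-37. The others were snx-14, vps-11, vps-16, vps-34, vps-39 and vps-54. Lacking a region was less frequent in the members than in the other named genes, since 75.9% and 49.8% had one. The same held for the Rabs, of which 12 of 20 had one. For 10 of the 14 no list had a region at all, and the other 4, rab-3, rab-33, rab-11.2 and rab-37, each had a weak one in a single replicate. VPS-34 is the phosphoinositide 3-kinase of endosomes and autophagy, and its partner gene vps-15 had a pooled signal of 9.96.

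Several members had an IDR region a little beyond the window. When the window was widened to 2000 bp upstream and 500 bp downstream, 8 more members had an IDR summit, which made 16 of 58 (27.6%), against 10.2% of the other named genes. The added genes were rab-33, vps-16, rab-10, vps-13, rab-19, vps-4, rab-6.1 and rab-14. By class the counts in the wide window were 6 of 20 rab genes and 10 of 31 vps genes. Thus 3 of the 14 genes without a pooled region in the window, rab-33, vps-16 and rab-6.1, had a strong region farther upstream. The strongest of these was at rab-33, with a signal of 43.48 (rank 306) 1524 bp upstream, and it was 19.11 in replicate 1 (rank 745) and 20.69 in replicate 2 (rank 380). At vps-16 the signal was 36.20 (rank 601) 1279 bp upstream, with 20.99 in replicate 1 and 15.89 in replicate 2. The region of rab-6.1 was uneven, with 4.92 in replicate 1 (rank 8466) and 19.09 in replicate 2 (rank 504). The nearest upstream gene on the same strand ended 107 bp from rab-33, 93 bp from vps-16 and 1852 bp from rab-6.1. At rab-33 and vps-16 the region thus lay farther upstream than the end of that gene.

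For rab-14, the region of signal 26.28 (rank 1442) was 1143 bp upstream, just outside the window, and the strongest pooled region inside it had only 3.11. Replicate 1 had a region of 18.99 at that site, while replicate 2 had no summit within 150 bp of the pooled one. The strongest nearby region of replicate 2 was one of 14.10 (rank 1215) with its summit 984 bp upstream. Its span, X:15607467-15607770, overlapped the pooled region at X:15607623-15607932. Whether such upstream regions act on these genes or on neighbours was not tested.

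**Figure D3:**
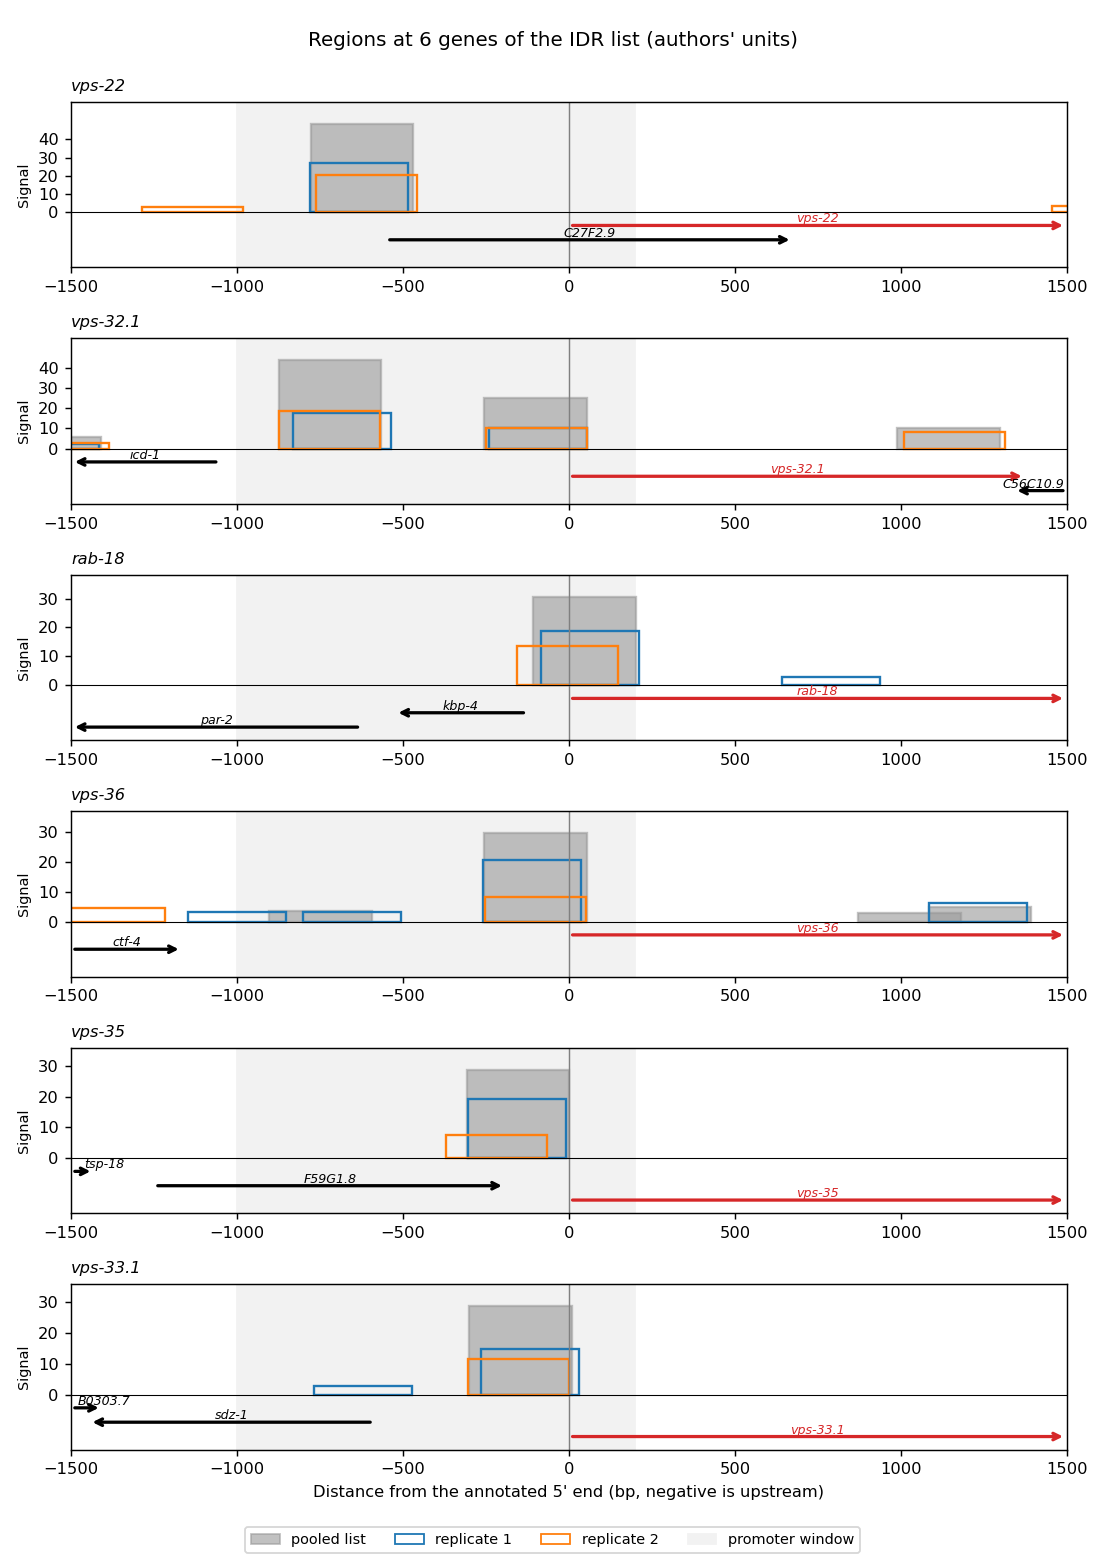
Regions of the pooled list (grey), replicate 1 (blue outline) and replicate 2 (orange outline) are drawn as boxes with their width in bp and their signal as height around the 5' ends of 6 genes with an IDR region, and arrows show protein-coding genes with their direction. The regions of rab-18, vps-36, vps-35 and vps-33.1 lie within 153 bp of the 5' end, while those of vps-22 and vps-32.1 lie 624 and 720 bp upstream and nearer to a neighbouring gene.

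Most of the regions lay upstream of the 5' end, as at other genes, but a larger share of them lay near or past it. The median distance of the strongest pooled summit was -174 bp in the members and -244 bp in the other named genes, negative values being upstream. The summit was downstream of the 5' end in 10 of 44 members (22.7%), against 9.94% of the other named genes with a region, and within 100 bp of it in 14 (31.8%), against 19.9%. The median signal of the strongest pooled region was 14.12 in members that had one and 10.59 in other named genes that had one. Of the 44 summits, 26 lay outside protein-coding genes and 18 inside one.

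**Figure D4:**
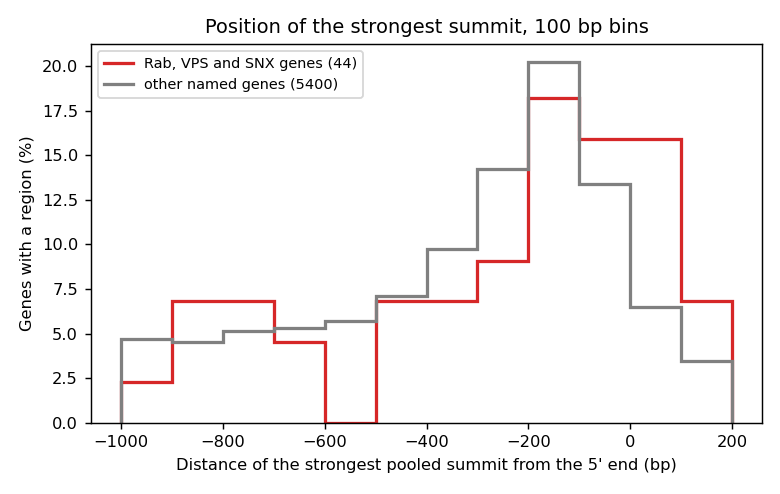
The distance of the strongest pooled summit from the 5' end (horizontal axis, bp, 100 bp bins) is plotted as a percentage of the genes that have a region, for 44 Rab, VPS and SNX genes (red) and 5400 other named genes (grey). The members have larger shares than the other named genes from 100 bp upstream to 200 bp downstream, and 22.7% against 9.94% of their summits lie downstream of the 5' end.

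Many of the regions were shared with a second gene. The strongest pooled summit lay in the window of another protein-coding gene as well in 17 of 44 members (38.6%), against 30.6% of the other named genes with a region. It was shared in 5 of the 8 members with an IDR summit, a count not made for the other named genes with an IDR summit. The neighbours included genes of general cell function, such as rpl-7, which encodes a ribosomal protein, at rab-11.1, and the translation factor genes eif-1 at vps-24 and eif-4A3 at vps-20. When each summit was given only to the gene with the nearest 5' end, the members with an IDR summit numbered 5 in place of 8. Those lost were vps-22, vps-32.1 and vps-51, the members with the strongest pooled regions. Their summits lay nearer to C27F2.9, icd-1 and lin-35.

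Genes that closely follow another gene on the same strand, the spacing found within worm operons, had fewer regions in this group. Of 14 members whose nearest upstream gene on the same strand ended within 500 bp, 7 had a pooled region and 1 an IDR summit. Of the other 44 members, 37 (84.1%) had a pooled region and 7 (15.9%) an IDR summit. Among the other named genes the pooled shares were 48.4% with such a gene close by and 50.1% without one, and the IDR shares were 5.3% and 8.67%. For pooled regions, the difference between members and other genes was therefore seen in those without a close upstream gene, but it was not tested, and operon membership was not annotated in the files used here.

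The replicates did not rank the 8 IDR members alike. All 8 were among the strongest regions of replicate 1, against 73.6% of the 875 other named genes with an IDR summit, while 3 of 8 (37.5%) were so in replicate 2, against 73.8%. In both together there were 3 of 8, against 51.5%. In all, 7 of the 8 ranked higher in replicate 1. Each replicate had a summit within 150 bp of the pooled one at all 8 genes, so the difference was in rank and not in position.

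Among the 32 members with a region in both replicates, 20 (62.5%) ranked higher in replicate 1, against 48.2% of the 3464 other named genes with both. A further 6 members had a region in replicate 1 only and 9 in replicate 2 only. Of the 44 members with a pooled region, 32 (72.7%) had a region anywhere in the window in each replicate, against 63.0% of the other named genes. Both replicate summits lay within 150 bp of the pooled one in 24 of these 44, a count not made for the other named genes. The members that ranked clearly higher in replicate 2 included rab-11.1 and vps-26 among those named above. The cause of the difference between replicates was not tested, and the files hold no read counts to set beside it.

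**Figure D5:**
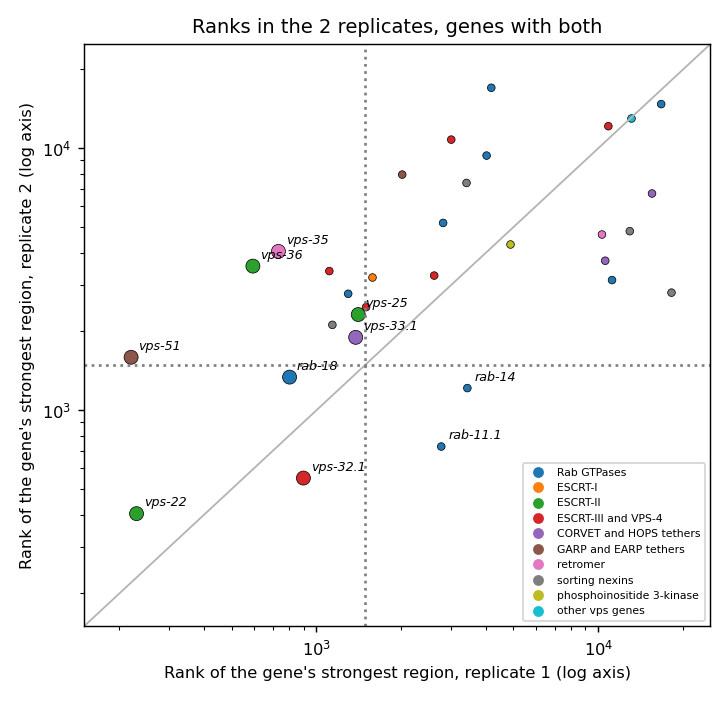
The rank of each gene's strongest region in replicate 2 (vertical axis) is plotted against that in replicate 1 (horizontal axis), both on log axes with strong regions at low values, for the 32 members with a region in both, with large circles for genes with an IDR summit. Of the 8 large circles, 7 lie above the diagonal, where replicate 1 ranks the gene higher, and all 8 lie left of the dotted line at rank 1484 of replicate 1.

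The PHA-4 consensus was present at a share close to that at other genes. A match within 50 bp of the strongest pooled summit was found in 17 of 44 members (38.6%, exact 95% binomial interval 24.4 to 54.5%, which covers the counting of genes alone), against 37.4% of 5400 other named genes with a region. For members with an IDR summit it was 3 of 8 (37.5%), namely vps-36, vps-33.1 and vps-25, against 41.7% of the other named genes with an IDR summit. Over the whole genome 48.2% of IDR summits and 33.4% of pooled summits had a match, and so did 31.8% of windows of the same length placed 150 bp upstream of every named gene. The single sequence TGTTTAC, 1 of those the consensus covers, was present in 1 of 44 members (2.27%), vps-18, against 4.15% of the other named genes with a region.

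Another short sequence was noticed on reading the 6 windows printed above and was counted afterwards, so its counts in the members are a description. GCGC, which reads the same on both strands, was present within 50 bp of the summit in 7 of 8 members with an IDR region (87.5%), all except vps-32.1, against 54.1% of the other named genes with an IDR summit. Over all 44 members it was 20 (45.5%), against 30.1%. The share was 38.1% of all IDR summits, 16.2% of all pooled summits and 13.3% of the windows 150 bp upstream of every named gene. At the replicates' own summits GCGC was present in 7 of the 8 genes in replicate 1 and in 6 of 8 in replicate 2, against 436 of 872 and 442 of 871 other named genes.

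A longer form, GCGCNCNATCG, which contains GCGC and was searched on both strands, was present at 3 of the 8 genes (37.5%), rab-18, vps-36 and vps-35. It was present at 1.6% of the other named genes with an IDR summit, 0.193% of all pooled summits and 0.138% of the windows upstream of every named gene. Its letters were read from these same windows, so the count of 3 was fixed by that choice. The median content of G and C was 43.6% in the windows of the IDR members, 45.5% in those of the other named genes with an IDR summit and 39.6% in all pooled windows. No factor was assigned to these sequences.

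Beyond the genes of the name classes, 53 genes of the same pathways had been listed. The list was made with earlier results of these data known, so its shares are a description and not independent support. Of the 53, let-512 is annotated as vps-34 and is among the members already, which left 52. An IDR summit was present at 9 of these (17.3%) and a pooled region at 44 (84.6%), against 8.07% and 49.8% of the other named genes, a group that includes these 52. Of the 52, ccz-1 and eea-1 had regions in both replicates but none in the pooled list, and count here as having none. The median percentile of the 52 was 73.8, close to the 75.1 of the rab, vps and snx genes. The strongest in the pooled list was rme-8, which encodes a DnaJ protein of endosomes, with a signal of 49.43. Its signal was 37.56 in replicate 1 (rank 51) and 11.32 in replicate 2 (rank 2028). Both replicates ranked ccz-1 higher, at 19 in replicate 1 and 673 in replicate 2.

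The other pathway genes with an IDR summit were spread over several steps. In recycling, rme-1, which encodes an EH-domain protein, had a pooled signal of 48.34, and rme-4, an activator of RAB-35, had 30.48. In clathrin adaptors, apb-1 had 48.17 and dpy-23 had 39.71. Toward the lysosome, cup-5, the mucolipin channel gene, had 34.75 and ppk-3, which encodes the kinase that makes the phosphoinositide of late endosomes, had 33.11. The kinesin adaptor gene unc-16 had 45.83, with 17.83 in replicate 1 (rank 890) and 33.32 in replicate 2 (rank 53), and unc-108, which encodes a Rab under another name, had 45.47, with 16.26 in replicate 1 (rank 1108) and 30.84 in replicate 2 (rank 77). Both unc-16 and unc-108 ranked higher in replicate 2.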

How the data were processed

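PHA-4 ChIP-seq regions of 2 biological replicates were taken from the lists the authors deposited on ce11, whose sequence is that of WBcel235. Per the deposited manifests, there is a list for either replicate, a pooled list called on both, and an IDR list derived from these. Which caller and which IDR threshold the authors used is not given in the sources used here, nor is depth. The authors deposited for each region a signal, used for ranks within a list, and a −log10 q value, which is capped and was not used for ranking. The labels number the samples as biological replicates and do not describe the cultures. No columns of other samples were present (0).

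Summits were tied to genes of Ensembl release 115 in Python 3.11.15 (pandas 2.3.3, NumPy 2.4.6, SciPy 1.17.1, matplotlib 3.10.9, Biopython 1.88), after a check on simulated summits. Mitochondrial genes were left out. A gene's value is that of its strongest region in the window, and percentiles order the 10896 named genes. A replicate's strongest regions were its first 1484. The members, the roles and the list of 53 pathway genes were chosen with earlier results of these data known. Named were all members with an IDR summit, the strongest others up to 25, the members without a pooled region, and the pathway genes with an IDR summit; other names were added after their values were seen. Alternatives were other windows, other ways of tying regions to genes, other thresholds, each replicate alone and other sequence windows.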

Additional observations from a re-analysis of the deposited data

How the results depend on the processing

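No paired analysis was possible because there is only 1 group. The members with an IDR summit numbered 8, and 16 with a window of 2000 and 500 bp and 5 with each summit given to the nearest 5' end. In the strongest part of the list (742 regions) there were 3. In place of the IDR list, the strongest 3000 and 6000 pooled regions reached 17 and 28 members. The strongest 1484 regions of replicate 2 alone reached 5 and those of replicate 1 alone 11, and IDR was not run again. The ratio of the members' share to that of the other named genes was 1.71 for IDR summits and 2.71 with the wide window. It was 1.54 in a window of 500 and 100 bp, 1.43 with the nearest 5' end, 1.86 with the outermost 5' end and 2.03 by overlap. Without chemoreceptors it was 1.5, and among the smallest windows 1.81. By depth of the pooled list it was 1.21 at 742 regions, 2.05 at 3000 and 2.03 at 6000. With the strongest 1484 regions of 1 replicate in place of the IDR list, it was 1.12 for replicate 2 and 2.52 for replicate 1. For pooled regions the ratio was 1.52, and 1.63 in the narrow window (500 and 100 bp), 1.37 in the wide one, 1.64 with the nearest 5' end and 1.45 by overlap. It was 1.37 without chemoreceptors, 1.88 among the smallest windows and 1.57 to 1.66 with the whole list of 1 replicate. The median percentile of 75.1 was 46.1 to 46.2 with only the strongest 1484 regions of 1 replicate, where most genes tie, and 68.8 to 74.4 with the whole list of 1 replicate. The strongest regions of replicate 1 reached 11 members, and 17 in the wide window; those of replicate 2 reached 5, and 2 in the narrow window, 11 in the wide one and 2 with the nearest 5' end. The consensus share of 38.6% was 22.7% within 25 bp (21.0% in other named genes) and 2.27% for TGTTTAC. Alternatives to pooled counts and ratios were chosen after seeing the data. Of 125 recomputed signals of single genes, 114 were unchanged or nearly so, 6 moved and 5 had no region. Depth is unknown, so a missing region is not shown to be an absent one.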

Other observations

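The pooled list held fewer of the replicates' strong regions on 1 stretch of chromosome V, from 12 to 15 Mb, than elsewhere. Of the 6000 strongest regions of replicate 1, a pooled summit lay within 150 bp of 99 of 142 (69.7%) in that stretch and of 96.8% elsewhere. For replicate 2 it was 100 of 131 (76.3%) in the stretch and 96.2% elsewhere. The pathway genes ccz-1, which acts in the exchange of RAB-5 for RAB-7, and eea-1, an early endosome tether, had no pooled region. At ccz-1 the signal was 46.26 in replicate 1 (rank 19) and 17.58 in replicate 2 (rank 673), and at eea-1 it was 8.35 in replicate 1 (rank 4159) and 15.26 in replicate 2 (rank 990). The single rab, vps or snx gene in the stretch was vps-39, which had no region in any list and counts above as a member without one. Without the genes of the stretch, the ratio of the members' share to that of the other named genes was 1.70 for IDR summits, against 1.71 with them, and 1.51 for pooled regions, against 1.52. ccz-1 and eea-1 were singled out after their values were seen, and the cause of the gap was not tested.

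By chromosome, the members with an IDR summit were 3 of 11 on III (27.3%), 2 of 13 on II (15.4%), 2 of 14 on I (14.3%), 1 of 7 on V (14.3%), 0 of 5 on IV and 0 of 8 on X. The shares of the other named genes were 12.4% on III, 8.67% on II, 10.6% on I, 4.38% on V, 7.45% on IV and 8.08% on X. A pooled region was present at 7 of 11 members on III (63.6%), against 65.6% of the other named genes there, while on the other 5 chromosomes the members' share was 69.2 to 87.5%, against 32.8 to 61.9%.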
